A study of Mus musculus with 6 samples.

Results

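The IL-17 and IL-23 axis was followed through 10 genes in lesional skin: the ligand genes Il17a, Il17f, Il17c and Il17d, the genes Il23a and Il12b for the subunits of IL-23, and the receptor genes Il23r, Il17ra, Il17rc and Il17re. They were taken by their symbols from a table of 35434 genes, and all 10 were found. The skin came from mice with psoriasis that had received regulatory T cells (Tregs, which restrain other immune cells). There were 3 libraries from mice given Tregs exposed to lenvatinib, a receptor tyrosine kinase inhibitor, labelled Lenv-Treg, and 3 from mice given control Tregs, labelled Ctrl-Treg. Both groups therefore carried the disease and a transfer of Tregs, and no library came from healthy skin or from mice without a transfer. The sources used here do not give strain, age, sex, the way the disease was induced, the dose of cells or the number of mice. The title of the series credits lenvatinib-treated Tregs with the stronger anti-inflammatory effect, and the comparison asks how lesional skin differed between the 2 kinds of transfer. No gene in the table shows which cells a mouse received, so every direction below is that between the libraries as labelled. Whether the libraries of a group stem from different mice is not stated either, and p-values therefore reflect how far these samples vary, which may be technical variation.

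IL-17A and IL-17F are related cytokines made mainly by type 17 helper T cells, gamma delta T cells and innate lymphoid cells. They act on a receptor built from IL-17RA and IL-17RC, and in skin their main target is the keratinocyte, which answers with neutrophil attractants and antimicrobial proteins. IL-17C comes from epithelial cells and acts back on them through IL-17RA and IL-17RE. IL-23, a pair of the subunits encoded by Il23a and Il12b, comes mainly from dendritic cells and macrophages and sustains type 17 cells through the receptor encoded by Il23r and Il12rb1. The axis is central to psoriasis, where antibodies against IL-17A and IL-23 are used as treatment.

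Expression was given as FPKM (fragments of a gene, scaled by its length and by the depth of the library), so levels of different genes can be compared within a library. Depth, recovered from the steps between low values, was 39606294 to 40248462 assigned reads in the Lenv-Treg libraries and 38704536 to 40247457 in the Ctrl-Treg libraries. A single read on a gene of 1 kb was then worth 0.0249 to 0.0258 FPKM. Genes were tested with limma on log2(FPKM + 1) if they reached 0.5 FPKM in at least 3 of the 6 libraries, and a gene was called at an adjusted p under 0.05 over all 13945 genes tested. Of these, 11.0% were called higher and 30.8% lower in Lenv-Treg, and the median difference over all of them was -0.17 on the log2(FPKM + 1) scale. Every such difference is Lenv-Treg minus Ctrl-Treg, and for genes with low values it is smaller than the change in FPKM itself. Keratinocyte and fibroblast markers, keratin and collagen genes among them, had high summed levels in all 6 libraries. In Lenv-Treg these were 7213 to 8954 FPKM over 7 keratinocyte markers and 2376 to 3406 FPKM over 6 fibroblast markers. The same sums were 2644 to 4291 FPKM and 4395 to 5581 FPKM in Ctrl-Treg.

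Of the 10 genes, 8 were tested, and 6 of these were called higher and 1 lower in Lenv-Treg. Il17a, Il17f, Il17c and Il12b met the 0.5 FPKM filter only through Lenv-Treg libraries and so had to differ, and the count is not read against the 11.0% called higher, 30.8% called lower or 41.7% called either way among all genes. The other 4 tested genes were Il17ra and Il17rc, both higher, Il17d, lower, and Il17re, not called. Il23a and Il23r lay outside the filter. Counting all 10 genes whether tested or not, the 3 Lenv-Treg libraries were all above the 3 Ctrl-Treg libraries for 8 genes, all below them for Il17d, and overlapped with them for Il17re. Over all tested genes, 14.4% were separated in this way with Lenv-Treg higher and 41.0% with Lenv-Treg lower. The separation of Il17a, Il17f, Il17c and Il12b followed from the filter, and Il23a and Il23r were not tested. The count of 8 is therefore not read against these shares.

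**Figure D1:**
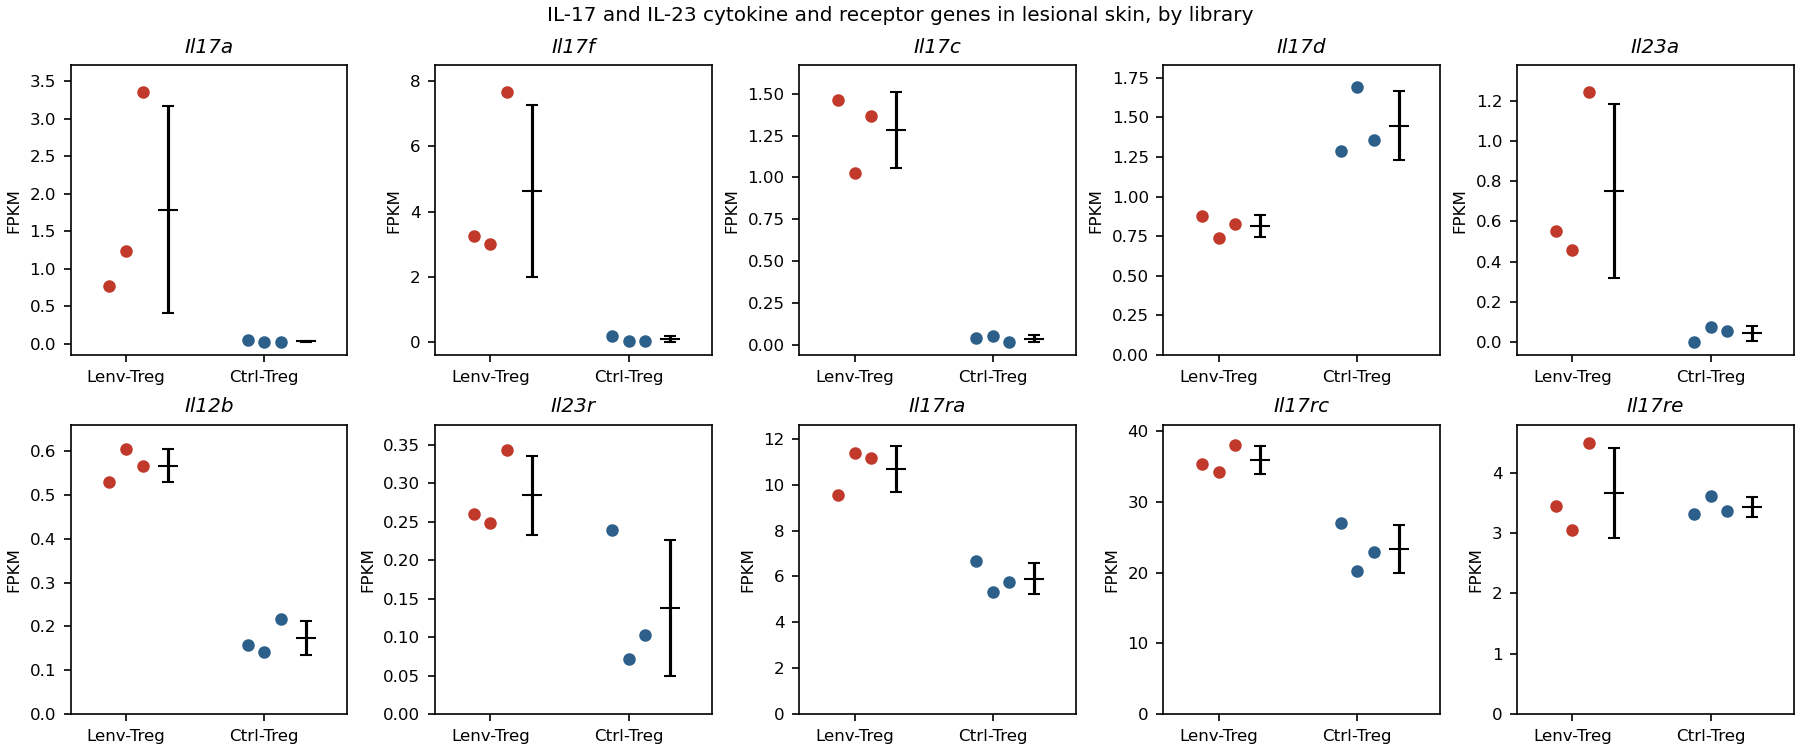
Level of each of the 10 genes in FPKM (linear y axis, own scale for each gene) in the 3 Lenv-Treg libraries (red) and the 3 Ctrl-Treg libraries (blue), replicates 1 to 3 from left to right, with the mean and SD of each group as a bar. Il17a, Il17f, Il17c and Il23a sat close to 0 in Ctrl-Treg and above 0.4 FPKM in every Lenv-Treg library, whereas Il17d was lower in Lenv-Treg and Il17re overlapped.

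Il17a, which encodes the founding member of the family, had 0.769, 1.23 and 3.36 FPKM in Lenv-Treg replicates 1, 2 and 3, against 0.0424, 0.0218 and 0.0221 FPKM in the Ctrl-Treg replicates. In reads these were 36, 58 and 156 in Lenv-Treg, against 2, 1 and 1 in Ctrl-Treg. The lowest Lenv-Treg library was far above every Ctrl-Treg library, but the Lenv-Treg libraries also differed among themselves, with replicate 3 the highest. The mean was 1.79 ± 1.38 FPKM in Lenv-Treg and 0.0288 ± 0.0118 FPKM in Ctrl-Treg (SD, n = 3 each), a 62.1-fold ratio. The log2 difference was 1.33 (SE 0.30, limma adjusted p = 0.0105). Il17a met the filter through Lenv-Treg alone and so had to differ, and that p is not read as support. With no filter the limma adjusted p was 0.0387. The ratio of summed reads per depth was 61.6, with a 95% Clopper-Pearson interval of 23.8 to 228 that covers counting error only. Without Lenv-Treg replicate 3 the ratio of means was 34.8. In bulk skin, more cells that make a transcript and more transcript per cell cannot be told apart, here and for the genes that follow.

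Il17f, whose product forms homodimers and also pairs with IL-17A, was the most abundant of the 4 ligand genes in Lenv-Treg. Its level was 3.25, 2.99 and 7.67 FPKM in Lenv-Treg, against 0.203, 0.0522 and 0.0264 FPKM in Ctrl-Treg. Replicate 3 was again the highest Lenv-Treg library, and the groups did not overlap. The mean was 4.64 ± 2.63 FPKM in Lenv-Treg and 0.0939 ± 0.0954 FPKM in Ctrl-Treg (SD, n = 3 each), from 1085 reads against 22. This 49.4-fold ratio (log2 difference 2.27, SE 0.28, limma adjusted p = 0.000832) depended on Ctrl-Treg replicate 1, which held 16 of the 22 reads, and was 118 without it. Il17f too met the filter through Lenv-Treg alone, and with no filter the limma adjusted p was 0.00676.

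Il17a and Il17f lie next to each other on chromosome 1, and they were called higher together with Il17c, Il12b, Il17ra and Il17rc. No usable window was at hand for Il17ra and Il17rc, so the sequences just upstream of the other 4 genes are shown. They are RefSeq sequences of build GRCm38.p6, read on each gene's own strand and ending at the base before its start, with annotated exons left out. The windows are chr1:20730655-20730904 (plus strand) for Il17a, chr1:20784271-20784494 (minus strand) for Il17f, chr8:122421770-122422019 (plus strand) for Il17c and chr11:44399813-44400062 (plus strand) for Il12b. Capitals mark matches to any of 4 motifs searched on both strands.
Il17a: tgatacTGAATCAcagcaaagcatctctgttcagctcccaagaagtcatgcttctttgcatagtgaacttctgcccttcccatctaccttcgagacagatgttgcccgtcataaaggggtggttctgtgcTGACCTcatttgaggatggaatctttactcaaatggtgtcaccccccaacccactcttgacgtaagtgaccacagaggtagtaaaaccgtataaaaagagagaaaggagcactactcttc
Il17f: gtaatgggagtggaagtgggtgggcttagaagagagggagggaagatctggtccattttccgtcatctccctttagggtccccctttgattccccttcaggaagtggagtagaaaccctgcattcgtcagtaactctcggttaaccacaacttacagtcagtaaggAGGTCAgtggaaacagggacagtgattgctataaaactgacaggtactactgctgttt
Il17c: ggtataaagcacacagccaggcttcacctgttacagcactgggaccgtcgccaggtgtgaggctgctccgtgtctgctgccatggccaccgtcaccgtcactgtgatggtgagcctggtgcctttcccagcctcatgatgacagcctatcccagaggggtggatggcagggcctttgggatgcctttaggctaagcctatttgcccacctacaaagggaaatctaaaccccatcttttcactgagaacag
Il12b: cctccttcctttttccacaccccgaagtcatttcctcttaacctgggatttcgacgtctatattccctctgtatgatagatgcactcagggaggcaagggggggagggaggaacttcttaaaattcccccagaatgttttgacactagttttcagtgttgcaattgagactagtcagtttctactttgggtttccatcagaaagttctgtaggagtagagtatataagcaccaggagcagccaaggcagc
The motifs were AGGTCA (a half-site of nuclear receptors), TTCNNNGAA (STAT factors), TGANTCA (AP-1) and GGG followed after any 2 bases by TTTCC (NF-kB). Il17a held an AP-1 match 244 to 238 bases before its start and an AGGTCA match, on the opposite strand, 120 to 115 bases before it. Il17f held 1 match, AGGTCA at 58 to 53 bases before its start, and the windows of Il17c and Il12b held 0 matches to these letters. Il23r, which had no call and whose window is not shown, held 3 matches, to AGGTCA and to the NF-kB motif. No 2 matches overlapped. Among 32851 windows of 250 bases from all genes in the same table, 14.0% held AGGTCA, 6.75% TGANTCA, 7.02% TTCNNNGAA and 1.41% the NF-kB motif. A match describes letters and is not a binding site.

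Il17c, the epithelial ligand, behaved more evenly across libraries. It stood at 1.46, 1.03 and 1.37 FPKM in Lenv-Treg, against 0.0399, 0.0547 and 0.0138 FPKM in Ctrl-Treg. All 3 Lenv-Treg libraries were close together and none approached the Ctrl-Treg libraries. The mean was 1.28 ± 0.229 FPKM in Lenv-Treg and 0.0362 ± 0.0207 FPKM in Ctrl-Treg (SD, n = 3 each), a 35.5-fold ratio, from 287 reads against 8 (log2 difference 1.14, SE 0.10, limma adjusted p = 0.00021). Il17c also met the filter through Lenv-Treg alone, and with no filter the limma adjusted p was 0.00141. The coefficient of variation in Lenv-Treg was 17.9% for Il17c, against 77.4% for Il17a and 56.7% for Il17f in the same libraries.

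Il17d, a family member expressed broadly outside the immune system, went the other way. It had 0.878, 0.739 and 0.828 FPKM in Lenv-Treg, against 1.29, 1.69 and 1.36 FPKM in Ctrl-Treg. Every Lenv-Treg library was below every Ctrl-Treg library. The mean was 0.815 ± 0.0702 FPKM in Lenv-Treg and 1.45 ± 0.217 FPKM in Ctrl-Treg (SD, n = 3 each), a ratio of 0.563 (log2 difference -0.43, SE 0.10, limma adjusted p = 0.0111). Of the 6 fibroblast markers, 0 were called higher and 3 lower, beside 11.0% and 30.8% of all tested genes, and 1 of the 3, Col3a1, lost its call in 8 of 18 alternatives. Their part in the Il17d result was not tested. Quantile normalization ended the call for Il17d (difference -0.18, adjusted p = 0.155), whereas it held after median-ratio scaling (-0.32, adjusted p = 0.0297).

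The makeup of the ligand family differed between the groups. With Il17b and Il25 added, the 6 IL-17 family ligands summed to 6.51, 6.48 and 13.9 FPKM in Lenv-Treg, against 1.75, 2.01 and 1.58 FPKM in Ctrl-Treg. Il17a and Il17f together made up 61.7%, 65.2% and 79.7% of that sum in Lenv-Treg, against 14.0%, 3.68% and 3.06% in Ctrl-Treg. Most of the ligand signal in Lenv-Treg was thus Il17f and Il17a, whereas most of it in Ctrl-Treg was Il17d. The share of Il17d was 13.5%, 11.4% and 5.98% in Lenv-Treg, against 73.5%, 84.2% and 85.8% in Ctrl-Treg. Il17c made up 22.4%, 15.8% and 9.87% in Lenv-Treg, against 2.28%, 2.72% and 0.874% in Ctrl-Treg. Il25 was close to undetected, with 2 reads over Lenv-Treg and 3 over Ctrl-Treg.

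**Figure D2:**
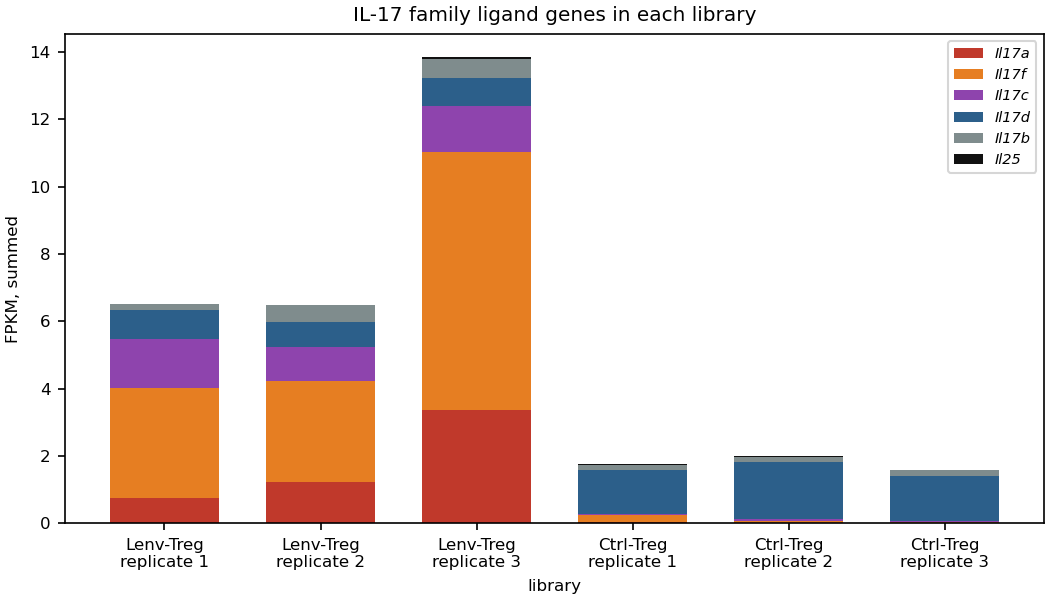
Summed FPKM of the 6 IL-17 family ligand genes in each library (linear y axis, bars from 0), the 3 Lenv-Treg libraries left of the 3 Ctrl-Treg libraries, each bar split by gene. Lenv-Treg bars reach 6.48 to 13.9 FPKM and are mostly Il17f and Il17a, and Ctrl-Treg bars reach 1.58 to 2.01 FPKM and are mostly Il17d.

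Il23a, which encodes the subunit found in IL-23 alone, was at 0.552, 0.457 and 1.24 FPKM in Lenv-Treg, against 0, 0.0752 and 0.0570 FPKM in Ctrl-Treg. These levels rest on 30, 25 and 67 reads in Lenv-Treg, against 0, 4 and 3 reads in Ctrl-Treg. Each Lenv-Treg library was above each Ctrl-Treg library, and replicate 3 was the highest. The mean was 0.751 ± 0.430 FPKM in Lenv-Treg and 0.0441 ± 0.0392 FPKM in Ctrl-Treg (SD, n = 3 each), a ratio of 17.1 (exact two-sided permutation p = 0.1, the smallest that 3 against 3 allows). Il23a reached 0.5 FPKM in 2 libraries only, so it had no call. When the filter was lowered to 0.1 FPKM, Il23a met it through Lenv-Treg libraries alone and so had to differ. The limma difference was then 0.72 (adjusted p = 0.0105), and with no filter the limma adjusted p was 0.0318. Without Ctrl-Treg replicate 2 the ratio of means was 26.3, and without Ctrl-Treg replicate 1, the library with 0 reads, it was 11.4.

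Il12b, which encodes the subunit that IL-23 shares with IL-12, was the most even of the 10 genes after Il17rc in Lenv-Treg. It had 0.529, 0.605 and 0.564 FPKM in Lenv-Treg, against 0.159, 0.143 and 0.217 FPKM in Ctrl-Treg, with no overlap. The mean was 0.566 ± 0.0379 FPKM in Lenv-Treg and 0.173 ± 0.0389 FPKM in Ctrl-Treg (SD, n = 3 each), a 3.28-fold ratio, from 170 reads against 51 (log2 difference 0.42, SE 0.08, limma adjusted p = 0.00529). Il12b also met the filter through Lenv-Treg alone, and with no filter the limma adjusted p was 0.00231. Il12a, which encodes the partner of that subunit in IL-12, lay outside the filter at 0.258, 0.310 and 0.411 FPKM in Lenv-Treg, against 0.162, 0.139 and 0.0280 FPKM in Ctrl-Treg (exact two-sided permutation p = 0.1). In each Lenv-Treg library Il12a was below Il23a, whereas in Ctrl-Treg it was above Il23a in 2 of 3 libraries.

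Il23r, the receptor chain that makes a cell responsive to IL-23, was the lowest of the 10 genes in Lenv-Treg. Its level was 0.260, 0.249 and 0.344 FPKM in Lenv-Treg, against 0.239, 0.0716 and 0.103 FPKM in Ctrl-Treg. The groups did not overlap, but Ctrl-Treg replicate 1 came within 1 or 2 reads of the lower Lenv-Treg libraries, with 24 reads against 26, 25 and 34. The mean was 0.284 ± 0.0518 FPKM in Lenv-Treg and 0.138 ± 0.0888 FPKM in Ctrl-Treg (SD, n = 3 each), a ratio of 2.06 (exact two-sided permutation p = 0.1) that was 3.25 without Ctrl-Treg replicate 1. Il23r was outside the filter, and with no filter the limma adjusted p was 0.101. Il12rb1, its partner chain, was at 0.192, 0.200 and 0.397 FPKM in Lenv-Treg, against 0.458, 0.101 and 0.236 FPKM in Ctrl-Treg, and the groups overlapped.

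Il17ra and Il17rc were expressed above each of the ligand genes in all 6 libraries. Il17ra, the chain shared by most receptors of the family, had 9.55, 11.4 and 11.1 FPKM in Lenv-Treg, against 6.66, 5.33 and 5.74 FPKM in Ctrl-Treg. The groups did not overlap, and the mean was 10.7 ± 1.00 FPKM in Lenv-Treg and 5.91 ± 0.680 FPKM in Ctrl-Treg (SD, n = 3 each). The ratio was 1.81 (log2 difference 0.76, 95% confidence interval 0.50 to 1.02, limma adjusted p = 0.00182). The levels rest on 5114 reads over Lenv-Treg and 2788 over Ctrl-Treg.

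Il17rc, which joins IL-17RA to bind IL-17A and IL-17F, was the highest of the 10 genes in every library. It stood at 35.4, 34.2 and 38.1 FPKM in Lenv-Treg, against 27.0, 20.2 and 23.0 FPKM in Ctrl-Treg. The groups did not overlap, with a mean of 35.9 ± 1.97 FPKM in Lenv-Treg and 23.4 ± 3.40 FPKM in Ctrl-Treg (SD, n = 3 each). The ratio was 1.53 (log2 difference 0.61, 95% confidence interval 0.33 to 0.88, limma adjusted p = 0.00655). Of the 7 keratinocyte markers, 4 were called higher and 1, Krt10, lower, beside 11.0% and 30.8% of all tested genes. Their median difference was 0.87, and their part in the receptor results was not tested.

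Il17re, which pairs with IL-17RA as the receptor for IL-17C, was the only tested gene of the 10 without a call. It had 3.45, 3.05 and 4.49 FPKM in Lenv-Treg, against 3.31, 3.62 and 3.37 FPKM in Ctrl-Treg, and the groups overlapped. The mean was 3.67 ± 0.743 FPKM in Lenv-Treg and 3.43 ± 0.163 FPKM in Ctrl-Treg (SD, n = 3 each). The log2 difference was 0.06 with a 95% confidence interval of -0.23 to 0.36 (limma adjusted p = 0.715), so changes of a size like those of Il17ra and Il17rc lay outside that interval, and its sign changed without Lenv-Treg replicate 3 (-0.06).

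**Figure D3:**
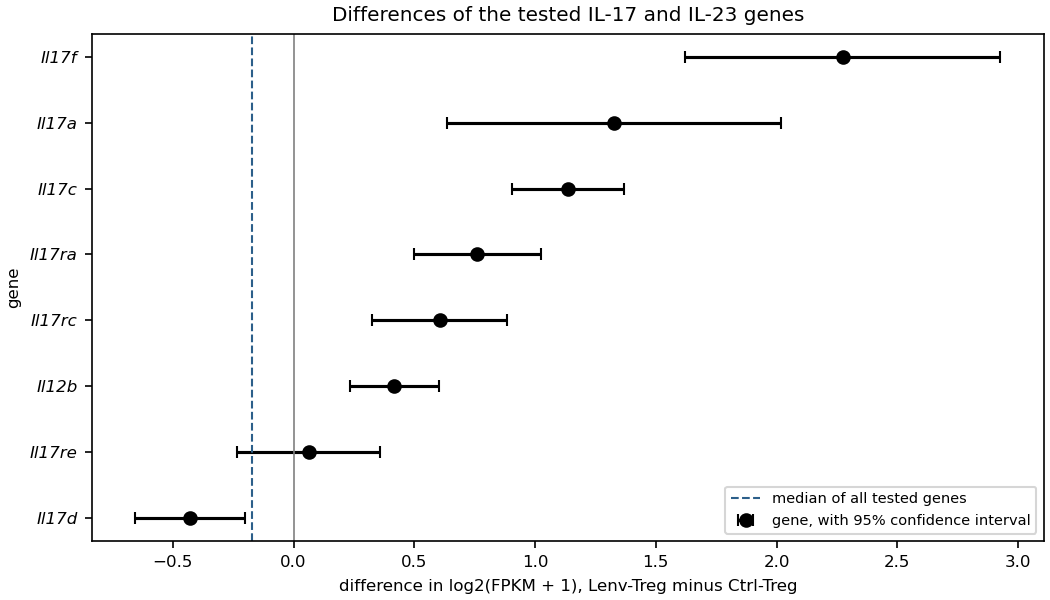
Difference in log2(FPKM + 1), Lenv-Treg minus Ctrl-Treg (x axis), for the 8 tested genes (y axis), with 95% confidence intervals from limma and the median of all tested genes as a dashed line at -0.17. The interval of Il17re alone includes 0, that of Il17d lies below 0, and those of the other 6 genes lie above 0. Of these, Il17a, Il17f, Il17c and Il12b met the filter through Lenv-Treg alone.

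The order of levels differed between the groups. In Lenv-Treg the means ran Il17rc, Il17ra, Il17f, Il17re, Il17a, Il17c, Il17d, Il23a, Il12b and Il23r from highest to lowest. Neighbours whose libraries overlapped, so that their order is not fixed, were Il17f and Il17re, Il17re and Il17a, Il17a and Il17c, Il17d and Il23a, and Il23a and Il12b. In Ctrl-Treg the order was Il17rc, Il17ra, Il17re, Il17d, Il12b, Il23r, Il17f, Il23a, Il17c and Il17a. The first 5 of these were separated from each other in every library, and all later neighbours overlapped. By mean, Il17f, Il17a and Il17c thus ranked above Il17d and the IL-23 genes in Lenv-Treg. In Ctrl-Treg they ranked below Il17d, Il12b and Il23r by mean, and only Il17f ranked above Il23a. Not all of this held by library: in Lenv-Treg replicate 1 Il17a was at 0.769 FPKM and Il17d at 0.878 FPKM.

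Ratios within a library compare genes without regard to depth, and 6 were computed. The ratio of Il17f to Il17a was 4.22, 2.43 and 2.28 in Lenv-Treg, against 4.78, 2.39 and 1.20 in Ctrl-Treg, with overlap (exact two-sided permutation p = 0.9, adjusted p = 1 over the 6 ratios). The Ctrl-Treg values rest on 1 or 2 Il17a reads each, so a difference in this ratio was not detectable at this depth. Il23a relative to Il12b was 1.04, 0.755 and 2.21 in Lenv-Treg, against 0, 0.527 and 0.263 in Ctrl-Treg, with no overlap (exact permutation p = 0.1, adjusted p = 0.15). In the summed reads, per length, Il23a stood above Il12b in Lenv-Treg (1.32) and below it in Ctrl-Treg (0.253). Il12b relative to Il12a was 2.05, 1.95 and 1.37 in Lenv-Treg, against 0.981, 1.03 and 7.73 in Ctrl-Treg, where the last value rests on 2 Il12a reads (exact permutation p = 1).

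Since T cells are a main source of IL-17, Il17a and Il17f were also set against the mean level of the T cell receptor complex genes Cd3d, Cd3e and Cd3g. Il17a relative to that mean was 0.266, 0.510 and 0.815 in Lenv-Treg, against 0.00879, 0.00683 and 0.00496 in Ctrl-Treg. Il17f relative to it was 1.12, 1.24 and 1.86 in Lenv-Treg, against 0.0420, 0.0163 and 0.00593 in Ctrl-Treg. Neither ratio overlapped between the groups (exact permutation p = 0.1 for each, adjusted p = 0.15). Of the 3 genes, none was called. Cd3d differed by 0.12 (limma adjusted p = 0.688) and Cd3g by -0.50 (adjusted p = 0.0677, under the threshold in 5 of 18 alternatives). Cd3e was at 1.50, 0.819 and 1.50 FPKM in Lenv-Treg, against 2.11, 1.31 and 1.75 FPKM in Ctrl-Treg (log2 difference -0.27, limma adjusted p = 0.224). Il17rc relative to Il17ra was 3.70, 3.00 and 3.41 in Lenv-Treg, against 4.05, 3.79 and 4.0 in Ctrl-Treg, lower in each Lenv-Treg library (exact permutation p = 0.1, adjusted p = 0.15).

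**Figure D4:**
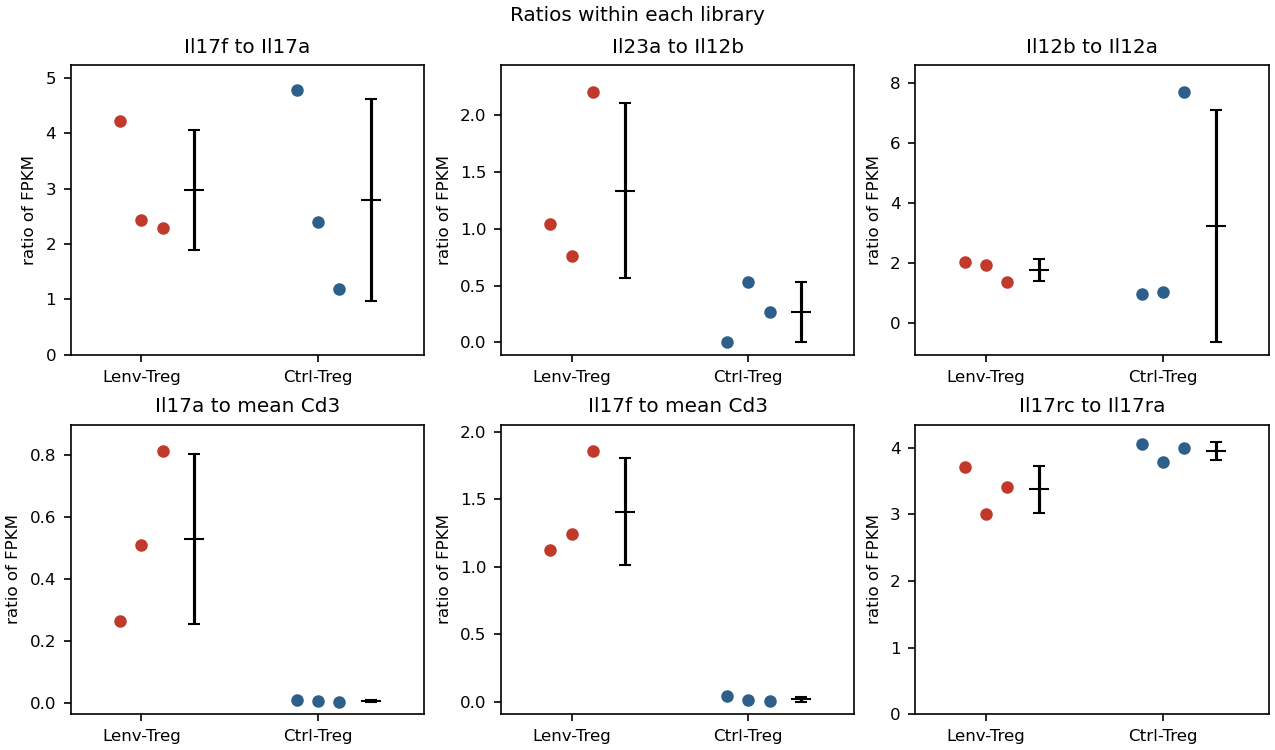
The 6 ratios of FPKM (linear y axis, own scale for each ratio) in the 3 Lenv-Treg libraries (red) and the 3 Ctrl-Treg libraries (blue), replicates 1 to 3 from left to right, with mean and SD as a bar. Il17a and Il17f relative to the Cd3 genes were 0.266 or more in Lenv-Treg and 0.0420 or less in Ctrl-Treg, whereas the ratio of Il17f to Il17a overlapped.

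Markers of the cells that make or answer these cytokines were read beside them. Of 14 T cell markers listed, 11 were found and 8 tested, with 1 called higher and 2 lower, near the 11.0% and 30.8% of all tested genes, a median difference of -0.25, and summed levels of 13.8 to 20.1 FPKM in Lenv-Treg against 18.2 to 26.6 FPKM in Ctrl-Treg. Under quantile normalization that median was 0.03. Lck (-0.67, limma adjusted p = 0.00305) and Cd2 (-0.65, adjusted p = 0.012) fell, and Cd5 rose (0.51, adjusted p = 0.0156). The call of Cd2 was lost under quantile normalization, and that of Cd5 as TPM and without Lenv-Treg replicate 2. Of 14 gamma delta T cell markers listed, 4 were found by symbol, and the gamma and delta receptor constant genes were not among them. Of these 4, Sox13, a factor of the IL-17-producing subset that is also expressed outside it, fell (-1.47, adjusted p = 0.00011). Scart1, a scavenger receptor of that subset, rose (0.53, adjusted p = 0.0377), a call that was lost in 7 of 17 alternatives. Blk (0.40, adjusted p = 0.113) and Scart2 (0.38, adjusted p = 0.165) were not called, and the median difference of the 4 was 0.39. Their summed level was 5.14 to 7.63 FPKM in Lenv-Treg against 11.7 to 11.9 FPKM in Ctrl-Treg, and most of the Ctrl-Treg sum was Sox13, at 2.59 to 3.41 FPKM in Lenv-Treg against 9.62 to 10.6 FPKM in Ctrl-Treg. No marker found from either list was at 0 throughout a group.

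Markers of myeloid cells were read in the same way. All 11 neutrophil markers were tested and 10 were called higher (4 of the 11 met the filter through Lenv-Treg alone), with summed levels of 333.8 to 632.2 FPKM in Lenv-Treg against 15.6 to 35.1 FPKM in Ctrl-Treg. Of 10 macrophage markers 4 were called higher and 1 lower (2025 to 2152 FPKM in Lenv-Treg against 1367 to 1841 FPKM in Ctrl-Treg), and of 8 dendritic cell markers tested 0 were called higher and 3 lower (198.7 to 354.0 FPKM in Lenv-Treg against 376.1 to 461.6 FPKM in Ctrl-Treg). Over all tested genes 11.0% were called higher and 30.8% lower, so the dendritic cell count is near the background. Of its 3 calls, Cd207 was lost in 8 of 18 alternatives and H2-Ab1 in 6 of 18, whereas Xcr1 met the filter through Ctrl-Treg alone. Most of the summed dendritic cell level was H2-Ab1, at 171 to 326 FPKM in Lenv-Treg against 358 to 430 FPKM in Ctrl-Treg. The median difference of the 8 dendritic cell markers was 0.01. The part of these cell types in the levels of the cytokine genes was not tested.

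Among the other genes of the IL-17 and IL-12 families, 5 of 10 were tested, 0 were called higher and 3 lower (median difference -0.51), beside 11.0% and 30.8% of all tested genes. Il12rb2, a chain of the IL-12 receptor found on type 1 helper T cells, was at 0.144, 0.149 and 0.0698 FPKM in Lenv-Treg, against 0.949, 0.663 and 0.729 FPKM in Ctrl-Treg (log2 difference -0.66, SE 0.09, limma adjusted p = 0.00148). It met the filter only through Ctrl-Treg libraries. Ebi3, which encodes a subunit of IL-27 and IL-35, had 9.02, 5.73 and 7.16 FPKM in Lenv-Treg, against 18.1, 11.7 and 12.8 FPKM in Ctrl-Treg (-0.87, adjusted p = 0.0109). Il17rd fell by 0.51 (adjusted p = 0.0213), a call that was lost in 7 of 18 alternatives, and Il17rb, the receptor chain for IL-25, was not called (-0.12, adjusted p = 0.44).

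Of 18 genes downstream of the IL-17 receptor, all tested, 6 were called higher and 3 lower, beside 11.0% higher and 30.8% lower among all tested genes, with a median difference of 0.10 that turned to -0.17 as TPM. The genes called higher included feedback regulators and transcription factors of the response. Zc3h12a, whose product degrades inflammatory messenger RNAs, rose by 2.15 (SE 0.23, limma adjusted p = 0.000477). Nfkbiz, an inducible NF-kB cofactor needed for many IL-17 target genes, was at 33.4, 27.6 and 38.8 FPKM in Lenv-Treg, against 14.1, 9.37 and 12.1 FPKM in Ctrl-Treg (1.42, adjusted p = 0.000807). Cebpd rose by 1.50 and Arid5a, which stabilises messenger RNAs in this pathway, by 0.88 (adjusted p = 0.00101 and 0.000811). Traf3ip2, which encodes the adaptor Act1 that couples the receptor to all of these, had 7.07, 8.42 and 8.21 FPKM in Lenv-Treg, against 8.11, 6.82 and 7.97 FPKM in Ctrl-Treg, with overlap (0.04, adjusted p = 0.767). The genes called lower, Traf5, Map3k7 and Tab2, differed by -0.41, -0.32 and -0.36 and none was called after median-ratio scaling.

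Of 12 genes for IL-23 receptor signalling and type 17 lineage factors, 5 were called higher and 1 lower, beside the same 11.0% and 30.8%. The median difference was -0.03, and 0.16 after median-ratio scaling. The gene called lower was the lineage factor Rora (-0.54, limma adjusted p = 0.0312), and none was called lower after median-ratio scaling. Stat3, the main transducer of IL-23 signals, rose by 0.76 (SE 0.10, limma adjusted p = 0.00124), and Hif1a, which favours type 17 differentiation but responds to low oxygen in most cells, by 1.33 (adjusted p = 0.000108). Stat4 had 0.608, 1.44 and 0.952 FPKM in Lenv-Treg, against 0.256, 0.287 and 0.346 FPKM in Ctrl-Treg (0.61, adjusted p = 0.0157), and met the filter through Lenv-Treg alone. Prdm1 rose by 0.51 (adjusted p = 0.00891), but not as TPM (0.30, adjusted p = 0.0972).

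Of 9 genes for cytokines and receptors that support type 17 cells, 8 were tested, 4 called higher and 1, Il18, lower (median difference 0.39), again beside 11.0% and 30.8%. Il1b, which promotes IL-17 production, reached 192, 376 and 372 FPKM in Lenv-Treg, against 6.34, 4.33 and 3.68 FPKM in Ctrl-Treg (5.72, limma adjusted p = 3.06e-05). Il6, needed for type 17 differentiation, rose by 2.15 (adjusted p = 0.00256), and Il1a by 1.36 (adjusted p = 0.000345). Il1r1 rose by 0.41 (adjusted p = 0.013), a call lost without Lenv-Treg replicate 2 and as TPM. Ccr6, the chemokine receptor of type 17 cells, lay outside the filter at 0.525, 0.386 and 0.411 FPKM in Lenv-Treg, against 0.404, 0.277 and 0.371 FPKM in Ctrl-Treg, with overlap (exact permutation p = 0.2).

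Cytokines often made by the same cells as IL-17 differed from one another. Il22, which drives epidermal thickening, had 1.52, 1.15 and 3.96 FPKM in Lenv-Treg and 0 reads in each Ctrl-Treg library, with 370 reads over Lenv-Treg (limma adjusted p = 0.00409), and met the filter through Lenv-Treg alone. As for Il17a and Il17f, replicate 3 was the highest Lenv-Treg library. Tnf rose by 1.31 (adjusted p = 0.00146), and Il10 was not called (-0.19, adjusted p = 0.545). Il21 was listed at 0 in every library. Ifng, the type 1 cytokine, and Csf2 lay outside the filter, Ifng with 5 reads over Lenv-Treg against 27 over Ctrl-Treg (exact permutation p = 0.3).

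The keratinocyte genes known to be induced by IL-17 all rose: 17 of 17 were called higher and 0 lower. Over all tested genes 11.0% were called higher and 30.8% lower. This list, like the others, was chosen with earlier results of these data known, so the count is not read against those shares. The median difference of the list was 5.11, against -0.17 over all genes. Of the 17, 5 met the filter through Lenv-Treg alone and so had to differ, among them Defb4, Cxcl3 and Il24. Defb4, an antimicrobial peptide gene, had 57.1, 81.4 and 51.7 FPKM in Lenv-Treg, against 0.163, 0 and 0.338 FPKM in Ctrl-Treg (5.77, limma adjusted p = 1.49e-05). S100a9, a calprotectin subunit, rose by 8.92, and the neutrophil attractants Cxcl2 and Cxcl3 by 7.98 and 6.66 (adjusted p at most 2.91e-05). The differences were smallest for Ccl20, the ligand of Ccr6, at 0.96, and Il24 at 1.01. Neutrophils themselves express S100a9 and Cxcl2, and their markers rose in the same libraries, and the part of neutrophils in these values was not tested.

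**Figure D5:**
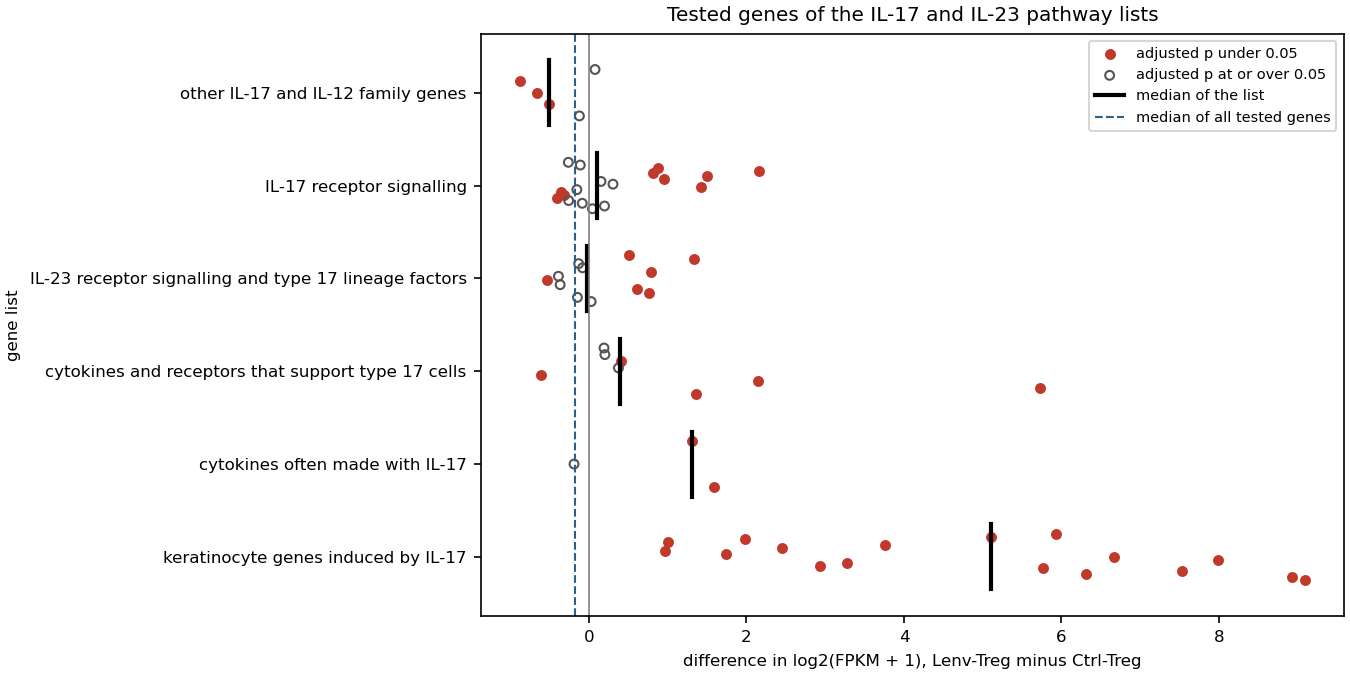
Difference in log2(FPKM + 1), Lenv-Treg minus Ctrl-Treg (x axis), of each tested gene in 6 pathway lists (y axis). Filled red points passed an adjusted p of 0.05, open points did not, black bars are list medians and the dashed line is the median of all tested genes; all 17 keratinocyte genes lie above 0, whereas the signalling lists spread to both sides.

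The genes whose profiles over the 6 libraries were most like those of the cytokine genes were found by the root mean square difference of log2(FPKM + 1) values after each gene was centred on its own mean. Among 13846 genes, the closest to Il17a were Phlda1 (0.139), Nfkbid (0.159), an NF-kB regulator, and Clcf1 (0.19), a cytokine gene of the IL-6 family. Phlda1 was at 17.4, 20.7 and 33.5 FPKM in Lenv-Treg, against 7.79, 9.23 and 8.77 FPKM in Ctrl-Treg, with replicate 3 the highest as for Il17a. The closest to Il17f were Nppb (0.163), a natriuretic peptide gene, Gk (0.189), glycerol kinase, and Klk14 (0.212), an epidermal protease gene. The closest to Il23a were Rgs2 (0.0912), Pilrb2 (0.101) and Prss12 (0.106). Because this measure follows the size of a difference as well as its shape, it ranks genes of like log2 change and says nothing on shared control.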

How the data were processed

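RNA-seq was made from lesional skin, 3 libraries per group. Total RNA was extracted with TRIzol and libraries were built with a VAHTS kit, per the labels' protocols. The authors deposited FPKM for 35434 genes; the submitters' processing notes name GRCm39 as the build. For the aligner, counting tool, strand setting and annotation nothing is given in the sources used here. Groups follow the treatment labels, and replicate numbers follow accession order.

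Genes with at least 0.5 FPKM in at least 3 libraries (13945) were tested with limma 3.58.1 in R 4.3.3 (lmFit, eBayes with trend, no covariates) on log2(FPKM + 1), two-sided, with Benjamini-Hochberg adjustment over all of them and a threshold of 0.05. Single genes outside the filter and ratios were tested by exact two-sided permutation (SciPy 1.17.1), which cannot go below 0.1 for 3 against 3. Folds are ratios of mean FPKM. Since FPKM of a gene step by whole reads, reads and depth were recovered (tolerance 0.005 reads plus 1.5e-07 per read), and all 13945 tested genes came out whole in the 6 libraries. The recovery of reads and the main limma fit were tested on simulated data, and the other steps were not.

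Alternatives were pseudocounts of 0.1 and 0.5, filters at 0.1 and 1 FPKM or none, median-ratio scaling, TPM, quantile normalization, robust variance, sample weights, voom on recovered reads, a replicate block and leaving out each library. Named genes were the 10, up to 4 genes of the smallest p in each list, a few single genes of interest, and the 3 genes of most like profile. The 10 genes and the lists were chosen with earlier results of these data known. Promoters came from RefSeq (GRCm38.p6), which listed 8 of the 10 genes; other coordinates are not given. The values of 1 listed gene are not reported here.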

Additional observations from a re-analysis of the deposited data

How the results depend on the processing

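The 6 calls of higher and 1 of lower among the 10 genes held in every alternative in which the gene was tested, except that Il17d lost its call under quantile normalization (0 lower). Il17a, Il17f, Il17c and Il12b met the main filter through Lenv-Treg alone, so holding under alternatives that keep this filter adds little for them. With no filter their limma adjusted p ran from 0.00141 to 0.0387. A filter at 1 FPKM left Il17a and Il12b untested. Over these alternatives the log2 difference of Il17a ran from 0.95 to 5.26 (adjusted p 0.00108 to 0.0387) and that of Il17rc from 0.33 to 0.81 (adjusted p 0.00307 to 0.0489). The 5.26 came from voom on recovered reads, which is not on the log2(FPKM + 1) scale. The ends of the Il17a range are therefore not like for like. Il17re changed sign as TPM (-0.18), with sample weights (-0.030) and over the libraries left out (-0.061 to 0.159). Scaling moved the median of all genes, -0.17, to 0.00 (median-ratio), -0.44 (TPM) and -0.01 (quantile). Genes called higher (1532) came to 2417 by median-ratio scaling, 947 as TPM and 1152 to 1447 with a library left out. Genes called lower (4289) came to 2417, 7970 as TPM, 2304 by quantile normalization and 2780 to 3900 with a library left out. In the list of other family genes, 1 was called higher (0 before) with no filter, a filter at 0.1 FPKM or quantile normalization. Of IL-17 signalling genes called lower (3), the number was 1 with no filter, 0 by median-ratio or quantile, 7 as TPM and 0 to 3 with a library left out. In the IL-23 and lineage list, 3 were called higher as TPM (5 before), and the number lower (1) was 0 with no filter, median-ratio or quantile, 3 as TPM, 2 under the replicate block and 0 to 1 with a library left out. In the list of supporting cytokines the number lower (1) was 0 by median-ratio and 0 to 1 with a library left out. The cause of these shifts was not tested. Low read numbers in Ctrl-Treg (1 to 4 for most libraries of Il17a, Il17c and Il23a) limit their folds.

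Replicate numbers follow accession order and name no shared mouse or batch. Deviations of same-numbered libraries correlated at 0.196, -0.0109 and 0.328, and not every library correlated best with its own number. The replicate block gave 1637 genes higher and 4270 lower and left the calls of the 10 genes at 6 and 1.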
